A study of Mus musculus with 3 samples.

Results

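The angiopoietin and Tie genes were followed through the retinal cells of P6 mice as 6 of the 33696 genes counted. They were chosen by name, and each symbol matched 1 gene. The set held the ligand genes *Angpt1* (ENSMUSG00000022309) and *Angpt2* (ENSMUSG00000031465), the matrix gene *Svep1* (ENSMUSG00000028369), the receptor genes *Tek* (ENSMUSG00000006386) and *Tie1* (ENSMUSG00000033191), and the phosphatase gene *Ptprb* (ENSMUSG00000020154).

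Angiopoietin-1 is known as the ligand that activates the receptor Tie2, which *Tek* encodes, on endothelial cells (ECs), and it keeps vessels stable. Angiopoietin-2 is made by ECs, above all at sprouting fronts, and acts on the same receptor as a weak agonist or an antagonist, depending on context. Tie1 is a related receptor that modulates Tie2 signalling, Ptprb (also called VE-PTP) is the endothelial phosphatase that removes phosphate from Tie2, and the Svep1 protein (Polydom) is a matrix protein that binds Tie1.

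The 3 libraries were WT, *Tspan12* KO and *Ctnnb1* cKO. Tspan12 is a co-receptor for Norrin, and *Ctnnb1* encodes beta-catenin. The cKO mice were homozygous for a floxed *Ctnnb1* allele that Pdgfb-iCreER deleted in *Pdgfb*-expressing cells, with tamoxifen on 3 days from P1. Tamoxifen was stated for this group only. All mice were C57BL/6. Each library came from retinas of several P6 pups of a genotype, pooled, digested and enriched with beads for CD31 and CD11b, and the WT pups were not littermates of the others. With 1 library per genotype, no test between genotypes was possible: each comparison is between libraries, and every interval below is a 95% interval of counting error only. A level is the number of unique molecular identifiers (UMIs) of a gene per 1000000 UMIs summed over a class (CPM), and it was given only where a class held at least 20 cells of a library.

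After filtering, 8989 WT, 12732 *Tspan12* KO and 8451 *Ctnnb1* cKO cells were kept. Over all barcodes, before filtering, the median was 4974, 3166 and 2790 UMIs. The libraries shared 21 to 37 cell barcodes pairwise. ECs numbered 538, 284 and 2707, with a median of 15871.5, 15296.5 and 3358 UMIs, so the *Ctnnb1* cKO ECs were much shallower. All 10 endothelial markers were raised in 3 of the 4 EC clusters and 8 of 10 in the other. The targeted transcripts were still counted in ECs: *Tspan12* at 95.8 CPM in WT and 85.1 CPM in *Tspan12* KO, and *Ctnnb1* at 524 CPM in WT and 445 CPM in *Ctnnb1* cKO. Since 3' tags can lie outside a deleted part, these values do not check the genotypes.

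The receptor side was endothelial and the ligand side was divided. *Tek*, *Tie1* and *Ptprb* stood highest in ECs in every library, with intervals apart from those of the next class except for *Tie1* in *Ctnnb1* cKO, where mural cells overlapped. ECs held 79.6% to 92.7% of their UMIs. *Angpt1* was near its lowest in ECs and highest in cells of the neuronal lineage. *Angpt2* was highest in ECs in WT, where the interval of astrocytes overlapped, and was above ECs, with intervals apart, in astrocytes of the *Tspan12* KO and in mural cells of the *Ctnnb1* cKO library.

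**Figure D1:**
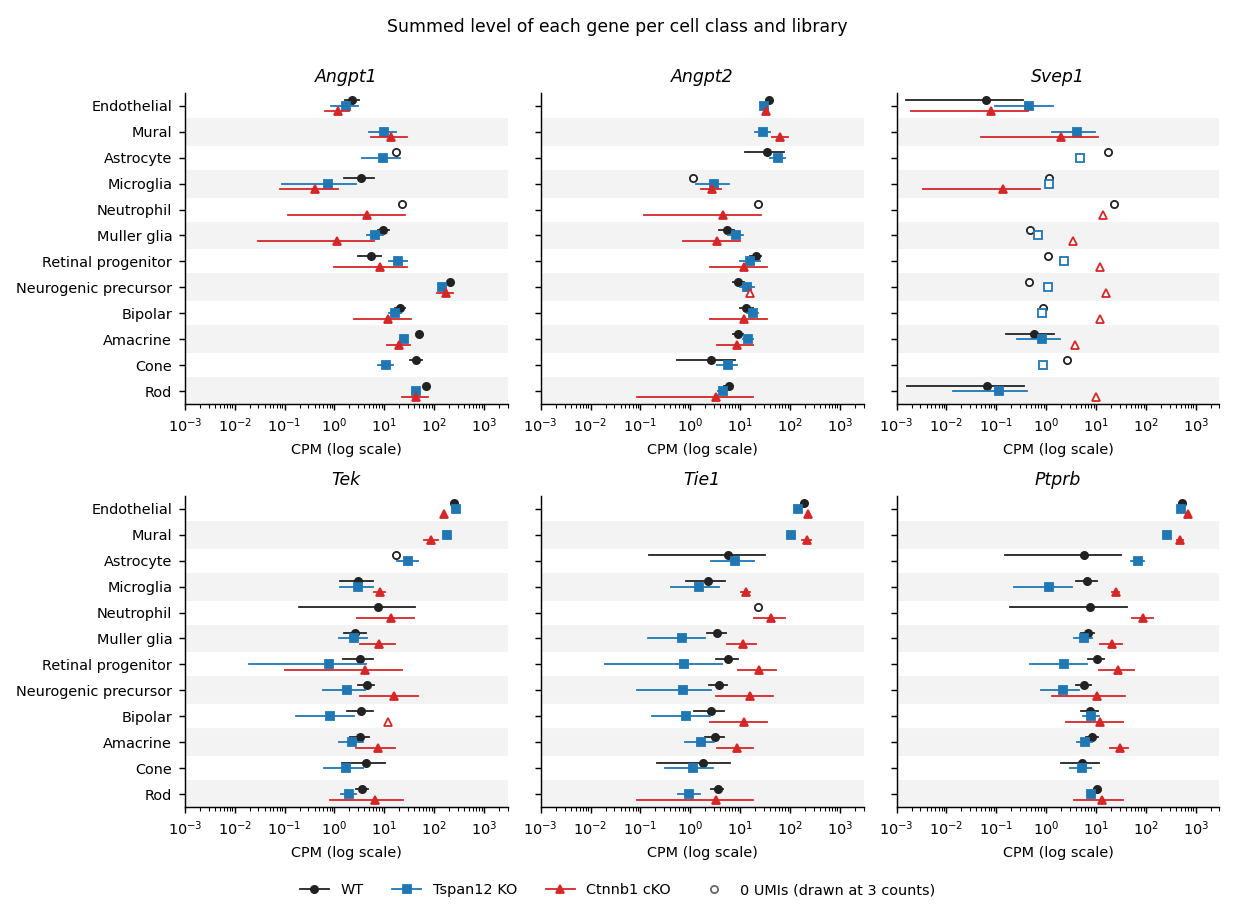
Summed level of each of the 6 genes (CPM, log axis) in each cell class with at least 20 cells, for the WT, Tspan12 KO and Ctnnb1 cKO libraries. Points are levels, lines are 95% counting intervals, and open symbols stand at 3 counts where no UMI was found. Tek, Tie1 and Ptprb peak in endothelial cells, and Svep1 stays low throughout. Angpt1 peaks in the class named neurogenic precursor, a name that depended on the clustering for the cells with most of it.

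*Angpt1* was highest in the cells called neurogenic precursor-like, at 208 CPM (197 to 219) in WT, 145 (131 to 159) in the *Tspan12* KO and 171 (117 to 241) in the *Ctnnb1* cKO library, from 1394, 405 and 32 UMIs. Neurogenic precursors are dividing or freshly divided cells that are committing to a neuronal fate. Among the named classes rods came next in each library, at 68.4, 42.8 and 43.3 CPM, and amacrine cells after them, at 50.7, 25.0 and 19.8 CPM. The unnamed cells of WT were at 76.9 CPM together, above rods. The intervals of neurogenic precursors and rods were apart in each library, but those of rods (23.1 to 74.1) and amacrine cells (11.3 to 32.2) overlapped in *Ctnnb1* cKO. Amacrine cells overlapped the next class in all 3 libraries, which in WT was cones (44.1 CPM, 32.8 to 58.2). Bipolar cells followed at 20.8 CPM in WT, Muller glia at 9.66 and retinal progenitors at 5.33.

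The cells that the ligand acts on held little of its transcript. ECs showed *Angpt1* at 2.29 CPM in WT (37 UMIs), 1.69 in the *Tspan12* KO library (11 UMIs) and 1.17 in that of *Ctnnb1* cKO (15 UMIs). Microglia, which are not known as a source, were at 3.36, 0.743 and 0.401 CPM, and their intervals overlapped those of ECs in each library. The EC values cannot be told apart from that level.

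The neurogenic precursor class was made of 2 clusters that differed in *Angpt1* by an order of magnitude. Cluster 7 was led, besides *Angpt1* itself, by *Mybl1*, *Kcnc2*, *Vxn* and *Neurod4*, and had 4 of the 12 neurogenic markers raised. It stood at 273 CPM in WT (968 cells), 193 in the *Tspan12* KO library (632 cells) and 270 in that of *Ctnnb1* cKO (41 cells). Cluster 17, led by *Neurog2*, *Olig2* and *Dll1* and with 7 markers raised, stood at 9.05, 6.86 and 26.1 CPM, from 15, 5 and 2 UMIs. In cluster 7 a UMI of *Angpt1* was found in 38.9% of WT cells (35.9% to 42.1%), against 2.2% in cluster 17 (0.8% to 4.7%), at median depths of 4754 and 5758 UMIs. None of the 6 genes was used to form the clusters, but clusters were formed from other genes of the same cells, so these differences between clusters are a description.

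The name of cluster 7 depended on the clustering. The other clusterings used resolution 2, doublets kept, a minimum of 1000 UMIs, or the 6 genes allowed among the variable genes. In each, the cluster with the highest *Angpt1* was again led by *Angpt1* together with *Fabp7*. It had only 1 or 2 markers of its best-matching class raised, which was cones with doublets kept and horizontal cells otherwise. It was then unnamed, at 427, 233, 264 and 269 CPM in WT. A cluster named neurogenic precursor was at 107 CPM in WT with doublets kept and 94.1 with at least 1000 UMIs. With the 6 genes among the variable genes, 809 of the 1641 cells of cluster 7 fell in that unnamed cluster and 809 in the named one, where *Angpt1* was 64.8 CPM in WT and 61.0 in *Tspan12* KO. Whether the cells with the highest *Angpt1* bore the name of neurogenic precursors thus depended on the setting.

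Rods were split in the same way. Cluster 9, led by *Klhl1*, *Samd7* and *Dmd* and with 4 of 10 rod markers raised, held *Angpt1* at 105 CPM in WT and 74.2 in *Tspan12* KO. Cluster 1, with 8 rod markers raised, was at 8.38 and 7.07 CPM, and cluster 12, with all 10 raised, at 5.72 and 7.98 CPM. The summed level of the 10 rod markers was 10074 CPM in cluster 9 and 15998 and 18510 CPM in clusters 1 and 12 in WT. Amacrine cells differed too, with cluster 10 (*Ptprt*, *Ebf3*) at 70.5 CPM and cluster 13 (*Nrg1*, *Tfap2b*) at 8.44 CPM in WT.

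**Figure D2:**
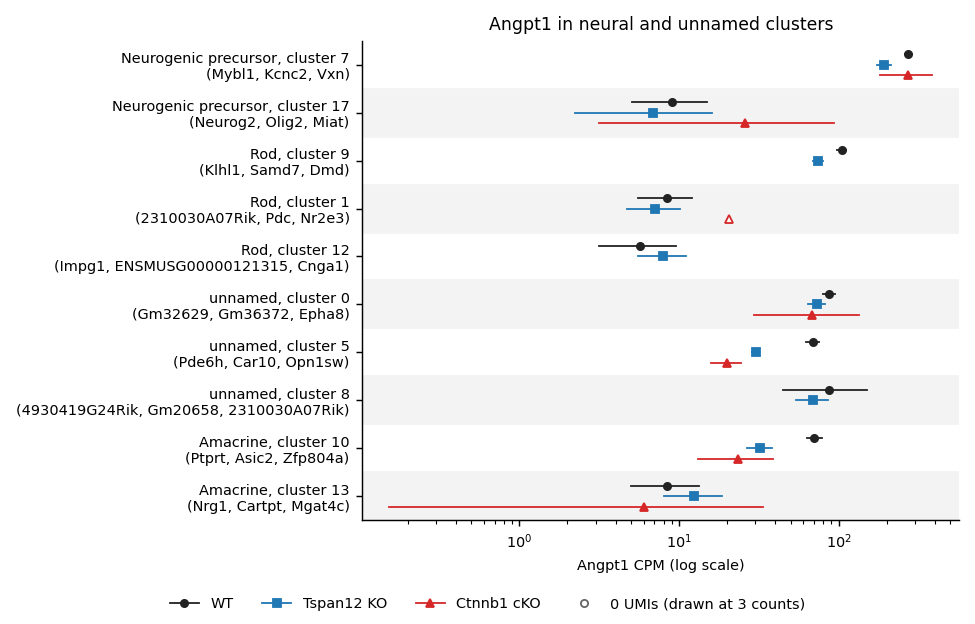
Angpt1 level (CPM, log axis) in neural and unnamed clusters, each labelled with its class and 3 leading genes, for the WT, Tspan12 KO and Ctnnb1 cKO libraries. Lines are 95% counting intervals and open symbols mark 0 UMIs. Cluster 7 lies highest at 193 to 273 CPM, and rod clusters 1 and 12 lie under 10 CPM in WT and Tspan12 KO.

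*Angpt1* was lower in the *Tspan12* KO library than in WT in 4 of these classes, with exceptions among their clusters and settings. The log2 ratio of CPM was -0.52 (-0.69 to -0.36) in neurogenic precursors, -0.67 (-0.81 to -0.54) in rods, -1.02 (-1.31 to -0.75) in amacrine cells and -2.03 (-2.67 to -1.39) in cones. Within single clusters it was -0.50 in cluster 7, -0.49 in cluster 9 and -1.13 in cluster 10, each with an interval under 0. It was 0.48 (-0.45 to 1.49) in rod cluster 12 and 0.57 (-0.38 to 1.53) in amacrine cluster 13. Clusters 1 (-0.25) and 17 (-0.40) and bipolar cells (-0.32) had intervals that spanned 0. Without doublet removal the ratio was -0.998 in cones and -0.034 (-0.38 to 0.32) in the cells then named rods. At that setting a cluster led by *Angpt1*, *Adcy2* and *Dmd*, with rods as its best match, was unnamed and so outside the rods. It held *Angpt1* at 109 CPM (102 to 116) in WT and 86.9 (80.5 to 93.8) in *Tspan12* KO. The ratio of the rod class thus depended on the setting. The *Tspan12* KO cells of these classes were shallower, with medians of 3129 against 4960 UMIs in neurogenic precursors and 2347 against 4030 in rods. Retinal progenitors had a ratio of 1.84 (0.86 to 2.87) from 25 and 15 UMIs, which was -0.45 by the marker gate and -0.40 at resolution 2.

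After each cell was thinned to 2000 UMIs, *Angpt1* was found in 21.3% of WT (19.0% to 23.8%), 14.9% of *Tspan12* KO (12.2% to 17.9%) and 13.3% of *Ctnnb1* cKO neurogenic precursors (5.05% to 26.8%), with 46, 185 and 24 shallower cells left out. The share before thinning was 30.8% in WT and 18.1% in *Tspan12* KO. In microglia the thinned share was 0.418%, 0.319% and 0.112%, so the neural shares were far above this background. At this matched depth the WT and *Tspan12* KO intervals of neurogenic precursors were apart, whereas those of rods overlapped, at 6.09% (5.0% to 7.34%) and 5.19% (4.21% to 6.32%).

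In the *Ctnnb1* cKO library neural cells were few and *Angpt1* could be compared only roughly. The ratio to WT was -0.29 (-0.84 to 0.22) in neurogenic precursors and -1.35 (-2.18 to -0.63) in amacrine cells, the latter from 16 UMIs. Under the marker gate, where a cell is placed by the markers it carries, the ratio in neurogenic precursors was -2.69, and in cluster 17 alone it was 1.53, so no direction can be given.

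*Angpt2* in ECs was 37.3 CPM (34.4 to 40.4) in WT, 30.7 (26.5 to 35.2) in the *Tspan12* KO and 33.4 (30.3 to 36.7) in the *Ctnnb1* cKO library, from 602, 199 and 428 UMIs. The log2 ratio to WT was -0.28 (-0.52 to -0.05) in the *Tspan12* KO and -0.16 (-0.34 to 0.02) in the *Ctnnb1* cKO library. The sign did not hold when every cell weighed the same: the mean over cells gave 0.14 and 0.19, and *Tspan12* KO ECs thinned to 2000 UMIs gave 0.58. A change of *Angpt2* over all ECs was therefore not resolved in either library.

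*Angpt2* was gathered in ECs with tip cell transcripts, the genes of the leading cells of vessel sprouts. ECs that showed at least 2 of 10 tip markers after thinning held *Angpt2* at 83.5 CPM in WT (159 cells), 62.9 in the *Tspan12* KO library (89 cells) and 80.6 in that of *Ctnnb1* cKO (502 cells). The other ECs were at 12.7, 10.8 and 16.2 CPM. The log2 ratio of tip-gated over other ECs was 2.71 (2.43 to 3.0), 2.55 (2.05 to 3.07) and 2.32 (2.01 to 2.63), so it was of like size in all 3 libraries. *Tek* went the other way in the same cells, at -0.34, -0.35 and -0.35, each with an interval under 0. So did *Ptprb*, at -0.20, -0.11 and -0.18, also with intervals under 0. *Tie1* was at -0.20 (-0.31 to -0.09) in WT, and its intervals spanned 0 in *Tspan12* KO and *Ctnnb1* cKO.

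When ECs were clustered again, the arterial-like subclusters stood lowest of their library for *Angpt2*, at 2.12 CPM in WT (20 cells, 1 UMI) and 7.20 and 9.48 CPM (6 and 14 UMIs) in the 2 of *Ctnnb1* cKO. In WT the cycling subcluster was at 52.3 CPM (47.6 to 57.3) and the capillary-like at 20.7 (17.3 to 24.6). The same 2 subclusters were at 44.3 and 17 CPM (7 UMIs for the latter) in *Tspan12* KO, where another, unnamed and led by *Nkd1*, *Pid1* and *Slco1a4*, was at 7.46 CPM. In *Ctnnb1* cKO the cycling subcluster was at only 19.4 CPM (14.5 to 25.4), and the highest level, 64.9 CPM (56.4 to 74.3), was in an unnamed subcluster led by *Ly6a*, *Xaf1* and *Oasl2*. Over the subclusters *Angpt2* did not simply follow the summed tip markers. These were at 794 CPM in that unnamed subcluster and 493 in the cycling one of the same library, but at 830 CPM in the unnamed subcluster led by *Rasd1*, where *Angpt2* was 40.8 CPM. The WT arterial-like cells had more tip marker transcript (692 CPM) than the capillary-like (552 CPM) and less *Angpt2*.

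Outside the ECs, *Angpt2* reached endothelial levels in 2 classes. Astrocytes, which guide the retinal vessels, were at 34.7 CPM in WT (6 UMIs in 21 cells) and 57.6 CPM in *Tspan12* KO (36 UMIs in 49 cells, 40.4 to 79.8). Of the *Tspan12* KO astrocytes 3 held most of the endothelial marker UMIs of the class. In the other 46, with at most 4 of the 10 endothelial markers and a summed marker level of 120 CPM, *Angpt2* was at 64.7 CPM while *Tek* was at 1.85 and *Tie1* at 0 UMIs. The *Ctnnb1* cKO library had 19 astrocytes and no level was taken.

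Among neurons *Angpt2* lay between 2.65 and 18.1 CPM in WT and *Tspan12* KO, with retinal progenitors at 20.6 and 16.1 CPM. In amacrine cells it was 9.17 CPM in WT and 14.5 in *Tspan12* KO, with a log2 ratio of 0.66 (0.18 to 1.15). Without doublet removal the ratio was 0.089, and by the marker gate 0.14. It was -0.31 (-1.01 to 0.36) in amacrine cluster 10 and 1.87 (1.07 to 2.75) in amacrine cluster 13. The difference thus depended on the setting and on the cluster. Of the 56 *Angpt2* UMIs of amacrine cluster 13 in *Tspan12* KO, 25 lay in 3 of the 4 cells there that carried at least 3 markers of horizontal cells, and WT had no such cell in that cluster. Over all clusters, cells with at least 3 horizontal markers numbered 9 in WT, too few for a level, with 4 UMIs of *Angpt2*. They numbered 22 in *Tspan12* KO, at 34.9 CPM (40 UMIs in 9 cells). No horizontal cell cluster was found.

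Mural cells, the pericytes and smooth muscle cells around vessels, numbered 15 in WT, 59 in the *Tspan12* KO and 86 in the *Ctnnb1* cKO library. WT therefore has no level and no ratio to WT was formed. *Angpt2* was at 28.5 CPM (19.9 to 39.7) in the *Tspan12* KO and 64.4 (44.3 to 90.4) in the *Ctnnb1* cKO library, and *Angpt1* at 9.78 and 13.7 CPM, from 12 and 7 UMIs.

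Endothelial transcripts were abundant in these mural cells, and their part in the receptor levels there was not tested beyond a split of the cells. The 10 endothelial markers summed to 5656 CPM in mural cells of the *Tspan12* KO and 5707 in those of the *Ctnnb1* cKO library, which is 64.9% and 71.0% of the level in ECs. *Tek* was at 68.4% and 55.3% of its EC level, *Tie1* at 71.0% and 92.1% and *Ptprb* at 52.2% and 68.9%. Over the 3 libraries, 85 of the 160 mural cells had UMIs of at most 4 of the 10 markers. They were also shallower, with 380917 UMIs in all against 1959584 in the other 75 cells.

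In those 85 cells *Ptprb* was at 13.1 CPM against 413 in the other 75, *Tek* at 34.1 against 195 and *Tie1* at 39.4 against 149. *Angpt1* went the other way, with 36.8 CPM (20.1 to 61.7, 14 UMIs) against 5.10 (2.45 to 9.38, 10 UMIs), and *Angpt2* was at 55.1 (34.1 to 84.3) against 31.1 (23.8 to 40.0). The 12 mural markers were at 17371 CPM in the 85 cells and 3187 in the 75. The intervals of *Angpt2* overlapped and those of *Angpt1* did not. The receptor genes were low where endothelial markers were low, and the ligand genes were not.

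**Figure D3:**
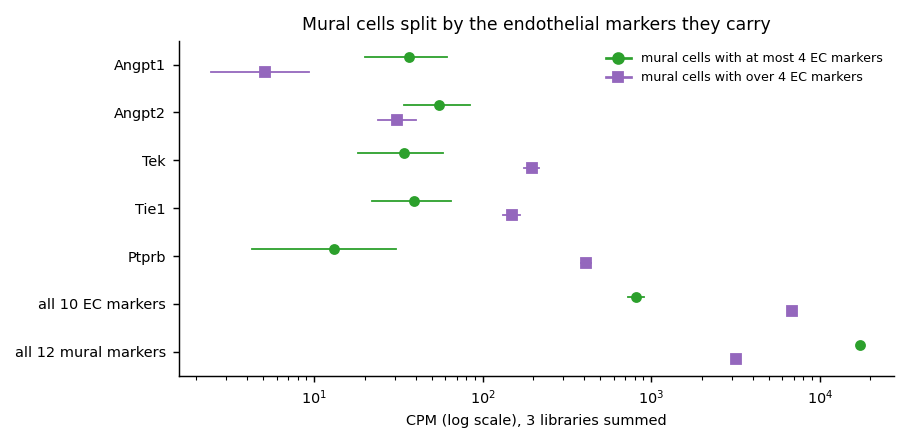
Levels of 5 genes and of the summed endothelial and mural markers (CPM, log axis) in mural cells of the 3 libraries together, split at 4 detected endothelial markers. Points are levels and lines 95% counting intervals. Tek, Tie1 and Ptprb are lower where the endothelial markers are lower, and Angpt1 is higher where the mural markers are higher.

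*Svep1* was close to undetected, and no difference between libraries could be seen at this depth. ECs held 1, 3 and 1 UMIs in the 3 libraries and mural cells 2, 5 and 1. Amacrine cells had 4 UMIs in WT and 5 in *Tspan12* KO, at 0.573 and 0.816 CPM. The highest level was 4.07 CPM (1.32 to 9.51) in *Tspan12* KO mural cells. No cluster of fibroblasts, which are known to make the protein, was found.

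*Tek* stood at 252 CPM (244 to 260) in WT ECs, 271 (258 to 284) in the *Tspan12* KO and 159 (152 to 166) in the *Ctnnb1* cKO library. It was lower in *Ctnnb1* cKO by a log2 ratio of -0.67 (-0.75 to -0.59), and the 10 other settings gave -0.91 to -0.53. Within single EC clusters the direction differed. The ratio was 0.54 (0.12 to 1.01) in EC cluster 4, which held 61 WT and 1822 *Ctnnb1* cKO cells. It was -0.22 (-0.80 to 0.31) in EC cluster 14, which held 457 and 29. In *Tspan12* KO the ratio was 0.10 (0.02 to 0.18), but it was -0.12 as a mean over cells and -0.10 after thinning, so its direction is not settled. Within subclusters that ratio was 0.13 (0.02 to 0.25) in the cycling and 0.46 (0.22 to 0.69) in the capillary-like one. It was 0.53 (-0.15 to 1.21) in unnamed subcluster 8. Outside ECs and mural cells *Tek* was at or under 4.47 CPM in WT, apart from 1 UMI in neutrophils.

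*Tie1* stood at 191 CPM (184 to 197) in WT, 148 (139 to 158) in the *Tspan12* KO and 235 (227 to 244) in the *Ctnnb1* cKO library. The 3 intervals did not overlap. The log2 ratio was -0.36 (-0.47 to -0.26) in *Tspan12* KO, from -0.67 to -0.36 in the other settings, and 0.30 (0.23 to 0.38) in *Ctnnb1* cKO. The latter was -0.014 when ECs were thinned to 2000 UMIs, so no direction held at matched depth. Within single EC clusters the *Tspan12* KO ratio was 0.61 (0.16 to 1.09, 46 WT UMIs) in cluster 4 and -0.45 (-0.58 to -0.32) in cluster 14.

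*Ptprb* stood at 531 CPM (520 to 543), 514 (496 to 531) and 705 (691 to 720). The log2 ratio was -0.05 (-0.11 to 0.01) in the *Tspan12* KO and 0.41 (0.37 to 0.45) in the *Ctnnb1* cKO library. In *Ctnnb1* cKO all other settings gave a positive value, from 0.079 to 0.55, the lowest in ECs outside the cycling and arterial subclusters. Scaling by trimmed means moved all *Ctnnb1* cKO ratios of ECs up by 0.14.

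**Figure D4:**
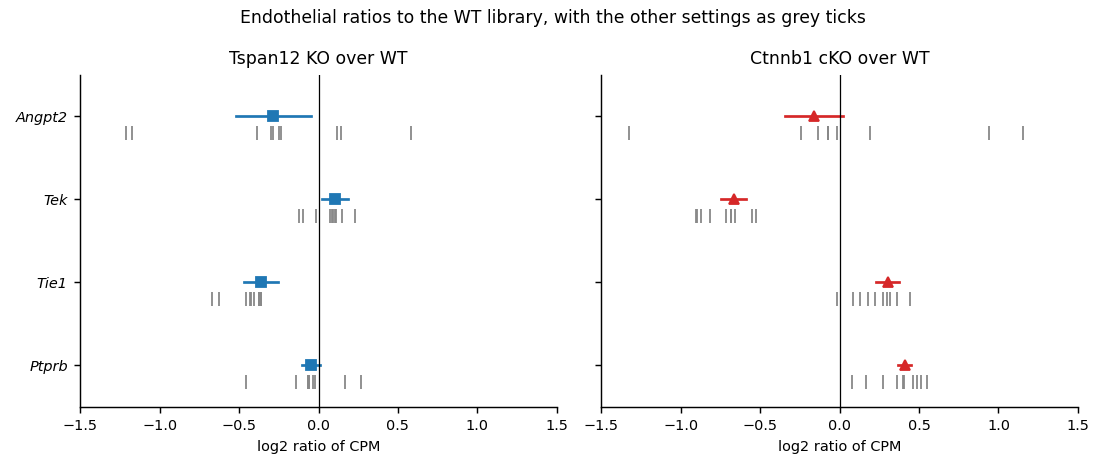
Log2 ratio of endothelial CPM to the WT library for Angpt2, Tek, Tie1 and Ptprb, with Tspan12 KO on the left and Ctnnb1 cKO on the right. Coloured points and lines are the ratio and its 95% counting interval, and grey ticks are the other settings. Tek lies under 0 in Ctnnb1 cKO and Tie1 under 0 in Tspan12 KO at every setting drawn, whereas the Angpt2 ticks lie on both sides of 0. Ratios within single EC clusters are not drawn, and in EC cluster 4 both of these were above 0.

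The balance of the receptor transcripts differed between the libraries and does not depend on how totals are scaled. ECs held 0.756 *Tie1* UMIs per *Tek* UMI in WT (0.721 to 0.792), 0.547 in the *Tspan12* KO library (0.505 to 0.592) and 1.48 in that of *Ctnnb1* cKO (1.40 to 1.57). *Ptprb* UMIs per *Tek* UMI were 2.11, 1.90 and 4.45. These are ratios of UMIs and not of molecules, and they are compared between libraries only.

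In the subclusters the order was alike, with exceptions. *Tie1* per *Tek* was 0.754 in the WT and 0.576 in the *Tspan12* KO cells of the cycling subcluster, and 0.816 and 0.488 in the capillary-like subcluster. In *Ctnnb1* cKO it ran from 0.860 in an arterial-like subcluster (*Dkk2*, *Bmx*, *Tmem100*) to 3.41 in an unnamed one (*Rasd1*, *Depp1*, *Gpihbp1*). The WT arterial-like subcluster was at 0.360, under the 0.860 of that *Ctnnb1* cKO subcluster. In subcluster 8, led by haemoglobin and photoreceptor genes, the ratios were 1.12 in WT and 0.833 in *Tspan12* KO, with intervals that overlapped.

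*Tek* and *Ptprb* were both highest in arterial-like ECs of WT and *Ctnnb1* cKO, and *Tspan12* KO had too few such cells for a level. In WT *Tek* was at 665 CPM (593 to 743) in the 20 arterial-like cells, 289 in capillary-like and 210 in cycling ECs, and *Ptprb* at 1681, 659 and 397 CPM. In *Ctnnb1* cKO the arterial-like subcluster led by *Dkk2* and *Bmx* had *Tek* at 361 CPM, but the one led by *Mgp* and *Eln* only at 138 CPM (119 to 158), near the 133 CPM of cycling ECs. *Ptprb* was high in both, at 1167 and 1156 CPM. *Tie1* varied less, from 158 to 239 CPM over the 3 named WT subclusters.

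These subcluster levels depend on the grouping. When ECs were instead called arterial by UMIs of at least 2 arterial markers, which many deep cells have, *Tek* was 244 CPM, *Ptprb* 541 CPM and *Angpt2* 40.6 CPM in WT, and 186, 827 and 22.0 CPM in *Ctnnb1* cKO. Most subclusters also belonged to 1 library: 6 held *Ctnnb1* cKO cells almost alone, so library and subcluster cannot be told apart there.

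**Figure D5:**
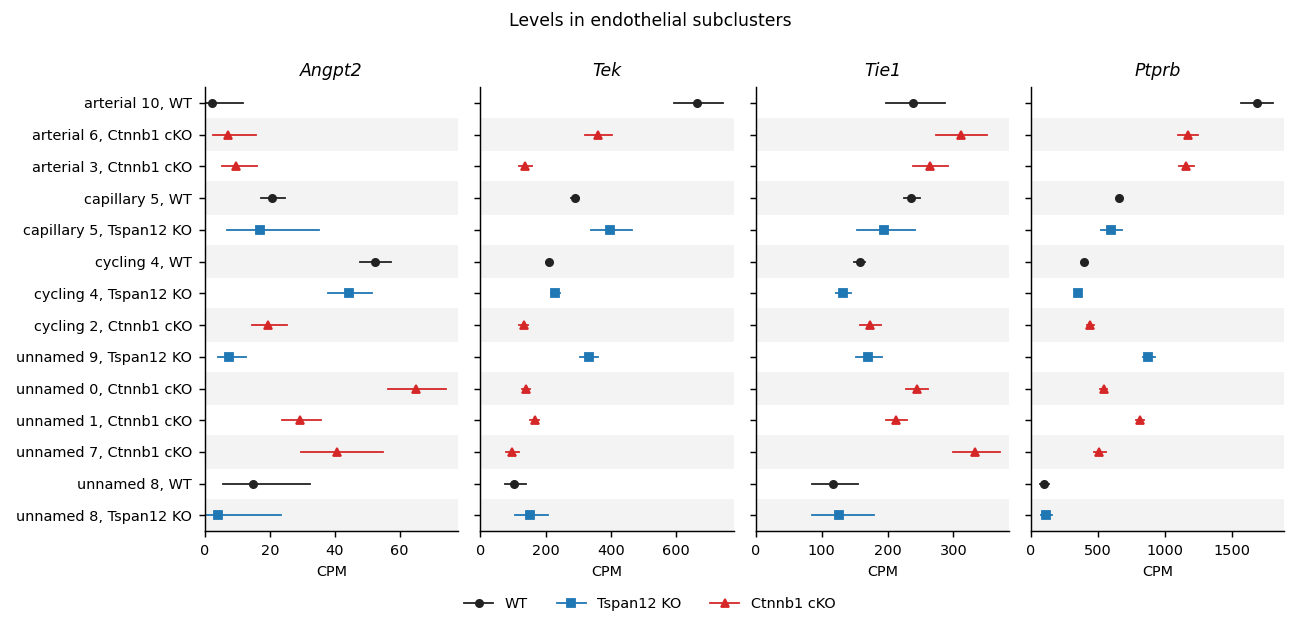
Levels of Angpt2, Tek, Tie1 and Ptprb (CPM) in endothelial subclusters, each named by its markers, its number and its library, where at least 20 cells were present. Lines are 95% counting intervals. Within WT and within Ctnnb1 cKO, Angpt2 is lowest and Ptprb highest in the arterial-like subclusters, and Tek reaches 665 CPM in that of WT.

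Per cell, after thinning to 2000 UMIs, *Tek* was found in 39.8% of WT ECs (35.6% to 44.2%), 37.3% of *Tspan12* KO (31.4% to 43.5%) and 25.4% of *Ctnnb1* cKO ECs (23.4% to 27.4%). *Tie1* was found in 37.9%, 27.7% and 37.7%, and *Ptprb* in 60.8%, 58.8% and 67.3%. Before thinning the *Tek* shares were 89.8%, 81.0% and 40.7%, at median depths of 15871.5, 15296.5 and 3358 UMIs. The part of depth in these shares was not tested. In rods, which should lack the receptors, thinned shares were at most 2.90% for the 3 genes in the libraries with over 1000 rods.

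Low receptor counts were seen in most other classes. In microglia *Ptprb* was at 6.71 CPM in WT, 1.12 in the *Tspan12* KO and 24.7 in the *Ctnnb1* cKO library, and the 10 endothelial markers in the same cells summed to 196, 115 and 412 CPM. The *Ctnnb1* cKO library, in which ECs made up 32.0% of cells, also had *Ptprb* at 29.8 CPM in amacrine cells, against 8.45 in WT, with endothelial markers at 479 and 192 CPM there. The part of free RNA in these counts was not tested.

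The other genes of the pathway were read from a list of 60, of which 53 had at least 50 UMIs over the 2 EC sums compared. In *Tspan12* KO ECs 1 was at least 2-fold higher and 1 at least 2-fold lower than in WT, where 2.05% and 4.18% of all 12203 genes of that depth were. In *Ctnnb1* cKO ECs 2 were higher and 3 lower, where 8.37% and 12.4% of all 12806 genes were. The median log2 ratio of the list was -0.01 beside 0.01 for all genes in *Tspan12* KO, and -0.09 beside -0.12 in *Ctnnb1* cKO. The listed genes past 2-fold in *Ctnnb1* cKO were *Foxo4* and *Pak1*, higher, and *Angptl4*, *Angptl6* and *Rap1a*, lower. *Pak1* (log2 ratio 1.02) was named after its value was seen. Each count, read against 53 genes, is a share under that of all genes.

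*Angptl4*, a secreted angiopoietin-like inhibitor of lipoprotein lipase, was past 2-fold in both libraries, at 57.7 CPM in WT, 11.6 in the *Tspan12* KO and 9.52 in the *Ctnnb1* cKO library. Its log2 ratios were -2.32 (-2.68 to -1.98) and -2.60 (-2.88 to -2.32). *Angptl6*, a related secreted factor, was at 4.22, 2.93 and 1.72 CPM.

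Among the signalling genes, *Rap1a*, a small GTPase of endothelial junctions, was at 242 CPM in WT, 202 in the *Tspan12* KO and 97.4 in the *Ctnnb1* cKO library, with log2 ratios of -0.26 and -1.32. *Foxo4*, a FOXO transcription factor, was at 2.91, 3.24 and 8.82 CPM. The PI3-kinase subunit gene *Pik3r2* was at 2.98, 6.63 and 5.39 CPM, the adaptor gene *Dok1* at 5.77, 11.1 and 6.32, and the cyclin gene *Ccnd1* at 211, 347 and 252 CPM. *Angptl6*, *Foxo4*, *Pik3r2* and *Dok1* rest on 19 to 113 UMIs per library.

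Over the 32 sums of class and library with at least 20 cells, the genes most like each member in log2(CPM + 5) were found by Pearson's r, as a description of sums that share libraries and depth. *Tek* ran with *Tead4* and *Ccm2l* (0.98 each) and *She* (0.97), *Tie1* with *Sox18* (0.98), *Igfbp7* (0.97) and *Cavin2* (0.96), and *Ptprb* with *Cd93*, *Adgrf5* and *Tm4sf1* (0.97 each). *Angpt1* ran with *Gm32629* and *Smad2* (0.89 each) and *Gm56908* (0.87), and *Angpt2*, with its several sources, with *Gna11* (0.87), *Agrn* (0.86) and *Lysmd2* (0.85). *Svep1*, with 24 UMIs in these sums, was left out.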

How the data were processed

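Single-cell libraries (10x 3' chemistry) of WT, *Tspan12* KO and *Ctnnb1* cKO retinas were deposited by the authors as raw UMI counts per gene and barcode. The matrix headers name Cell Ranger 8.0.1 and the submitters' processing notes GRCm39, whereas the methods state other versions, so no coordinates or sequences are given. Depth was 92684519, 137114957 and 37008362 UMIs.

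Barcodes were kept from 250 genes and 500 UMIs upwards, with mitochondrial UMIs up to 15%, and those with the highest Scrublet scores were removed as doublets (0.8% per 1000 cells; 760, 1656 and 665 barcodes). Counts were scaled to 10000 per cell, and 2000 variable genes (the 6 genes left out), 30 principal components and 20 neighbours were used for Leiden clustering at resolution 1 (scanpy 1.11.5, leidenalg 0.10.2), without integration. Of 29 clusters 23 were named by at least 3 raised markers, as "like" types, and 6 stayed unnamed. ECs were clustered again. Poisson, conditional binomial and Clopper-Pearson intervals were exact, and trimmed-mean factors came from edgeR 4.0.16 in R 4.3.3. The interval functions were tested on simulated data.

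Named pathway genes were those past 2-fold in both libraries or, with fewer than 4 such genes, the 4 with the largest ratios in each; 3 like genes of at least 200 UMIs were named per member. Members and lists were chosen with earlier results of these data known. No columns of other samples were present.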

Additional observations from a re-analysis of the deposited data

Results flagged for a closer look

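In the named classes, 5 gene and class pairs had ratios to WT of opposite signs in the *Tspan12* KO and *Ctnnb1* cKO libraries. Their counting intervals lay on opposite sides of 0. The difference was not tested, since each group was 1 library and both shared the WT library. In ECs *Tek* was at 0.10 and -0.67 and *Tie1* at -0.36 and 0.30 (log2). After thinning to 2000 UMIs *Tek* was at -0.10 and -0.91 and *Tie1* at -0.62 and -0.014. The other pairs were low counts in cells that should lack the gene: *Ptprb* in microglia at -2.59 and 1.88, *Tie1* in Muller glia at -2.32 and 1.74, and *Ptprb* in retinal progenitors at -2.17 and 1.46.

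*Angpt1* was also found in cells outside the named classes. In unnamed cluster 0, led by *Gm32629*, *Gm36372* and *Epha8*, it stood at 86.8 CPM in WT, 73.1 in the *Tspan12* KO and 68.1 in the *Ctnnb1* cKO library, far above microglia. Unnamed cells held 25.8%, 54.3% and 66.4% of the *Angpt1* UMIs of the 3 libraries. Of these 1063, 1783 and 184 UMIs, cluster 0 held 553, 264 and 8. Unnamed cluster 5, led by *Pde6h*, *Car10* and *Opn1sw*, held 491, 1436 and 87, at median depths of 34929, 26416 and 6842 UMIs. It stood at 68.6, 30.3 and 19.8 CPM, with log2 ratios to WT of -1.18 (-1.33 to -1.03) and -1.79 (-2.14 to -1.46).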

How the results depend on the processing

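No paired analysis was possible because each group was 1 library. Over ECs, the sign of 5 ratios changed, those of *Angpt2* in both knockout libraries, *Tek* and *Ptprb* in *Tspan12* KO and *Tie1* in *Ctnnb1* cKO. Ratios within single EC clusters were not among these settings. *Angpt2* in *Tspan12* KO was 0.58 after thinning to 2000 UMIs, 0.14 as a mean over cells and 0.11 in named subclusters. *Tek* in *Tspan12* KO was -0.10, -0.12 and -0.018 under the same settings, and *Tie1* in *Ctnnb1* cKO -0.014 after thinning. Other values moved past their counting interval. Thinning gave -2.27 for *Angpt1*, 0.27 for *Ptprb* and -0.91 for *Tek* in *Ctnnb1* cKO, and -0.62 for *Tie1* in *Tspan12* KO. Means over cells gave 0.19 (*Angpt2*), 0.46 (*Ptprb*), -0.82 (*Tek*) and 0.18 (*Tie1*) in *Ctnnb1* cKO, and -0.14 (*Ptprb*) and -0.67 (*Tie1*) in *Tspan12* KO. Trimmed-mean scaling gave 0.55 (*Ptprb*), -0.53 (*Tek*) and 0.45 (*Tie1*) in *Ctnnb1* cKO. Outside cycling subclusters *Ctnnb1* cKO was 0.94 (*Angpt2*), 0.16 (*Ptprb*), -0.87 (*Tek*) and 0.13 (*Tie1*), and *Tspan12* KO -1.18 (*Angpt2*) and 0.17 (*Ptprb*). Outside cycling and arterial subclusters, a choice made after seeing the data, *Ctnnb1* cKO was 1.15 (*Angpt2*), 0.079 (*Ptprb*), -0.90 (*Tek*) and 0.082 (*Tie1*), and *Tspan12* KO -1.22 (*Angpt2*), 0.27 (*Ptprb*) and 0.23 (*Tek*). Named subclusters alone, also chosen after seeing the data, gave -1.33 (*Angpt2*), 0.51 (*Ptprb*), -0.55 (*Tek*) and 0.22 (*Tie1*) in *Ctnnb1* cKO and -0.46 (*Ptprb*) in *Tspan12* KO. *Ptprb* in *Ctnnb1* cKO was 0.36 without doublet removal and 0.48 at resolution 2. With the 6 genes among the variable genes *Ptprb* was 494 CPM in *Tspan12* KO ECs, and *Angpt1* in neurogenic precursors 64.8 CPM in WT and 61.0 in *Tspan12* KO.

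The ratio of *Angpt1* in neurogenic precursors was -0.32 for *Tspan12* KO with at least 1000 UMIs and -0.79 by the marker gate. For *Ctnnb1* cKO it was -2.69 by the marker gate, 0.47 without doublet removal, 0.54 at resolution 2 and 1.53 in cluster 17. For *Tspan12* KO the sign of *Angpt1* changed in retinal progenitors (1.84) to -0.45 by the marker gate and -0.40 at resolution 2, and in rods to 0.48 in cluster 12. It also changed in bipolar cells (-0.32) to 1.20 by the marker gate and in Muller glia (-0.54) to 0.25 as a mean over cells. *Ptprb* in *Ctnnb1* cKO amacrine cells became -0.16 by the marker gate. The cause of these shifts was not tested. At 1.5-fold, 5 pathway genes were higher and 3 lower in *Tspan12* KO, and 6 and 11 in *Ctnnb1* cKO. At 2-fold, trimmed-mean scaling gave 4 higher and 3 lower in *Ctnnb1* cKO. The share of all genes was not computed at these settings, so no reading is given to the counts. Of the other values 335 stayed within their interval and 85 moved. No ratio in mural cells was formed, as WT held 15.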
